A study of Mus musculus with 3 samples.

Results

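The genes encoding NADPH oxidase subunits were followed here in mouse aortas labelled Plk1(+/-), the label for loss of 1 Plk1 allele. They were found by gene symbol among the probes of the arrays: 8 genes (Nox1, Nox4, Cyba, Cybb, Ncf1, Ncf4, Noxa1 and Noxo1), carried by 11 of 41174 probes. Nox4, Cybb and Ncf1 had a pair of probes each. After a filter on dim probes, 7 of the 8 genes entered the test over all 22167 features. Nox1, which was below background, did not.

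Total RNA of aortas was hybridised to 3 two-colour Agilent oligonucleotide arrays of 1 slide. Each array carried 1 individual sample labelled Plk1(+/-) in Cy5 and a pool of 3 wild-type samples in Cy3. Both genotypes are labelled as strain 129/CD1 and an age of 3-5 months, and the labels give no treatment. No array had the dyes exchanged, so dye and genotype cannot be told apart, and the pool counts as 1 control sample whose own spread between animals was not measured. All intervals and p-values below leave that spread out. A growth protocol for embryonic stem cells also stands in the labels, and the tissue label was followed here. The markers of smooth muscle, the main cell of the aortic wall, stood above background for 11 of 11 genes, in each dye of each array. The same held for 10 of 10 T cell and 16 of 16 macrophage markers, against 2 of 6 for colon epithelium, so it does not settle the tissue. Well above background were 66.0% to 69.0% of probe spots in Cy3 and 77.0% to 80.8% in Cy5. Plk1 itself had log2 ratios of -0.06, -0.08 and 0.42 in samples 1 to 3, and its mean was 0.10 ± 0.28 (SD, n = 3; limma adjusted p = 0.706), or -0.068 without sample 3. The targeted gene was thus not clearly lower on its probe, which segment of the gene was removed is not given in the sources used here, and samples are named below by their label. The number of arrays limits the precision.

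NADPH oxidases are membrane enzymes that carry electrons from NADPH to oxygen and so make superoxide or hydrogen peroxide. Their catalytic subunit is a Nox protein, and several of these need the small membrane protein encoded by Cyba for stability. In phagocytes, Cybb and Cyba form the membrane core, and cytosolic subunits, among them those encoded by Ncf1 and Ncf4, join it together with a Rac GTPase when the cell is activated. Nox1 is served by the related organiser and activator encoded by Noxo1 and Noxa1. Nox4 works with Cyba alone and is largely set by its own amount, and in arteries it is known from smooth muscle and endothelium.

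The probes are given first, because for Nox4 and Cybb the probes of a pair read differently. Each probe is 60 bases long. Coordinates follow the files (mm7). For 4 of the 11 probes the genomic span is longer than the probe, so the sequence crosses at least 1 intron, and these are shown whole, 5′ to 3′. For the other probes the middle 30 bases (positions 16 to 45) are shown for the members with the largest differences. No letters are in capitals, since no part of a probe was singled out. The GC content of member probes ran from 31.7% to 55.0%, against a median of 40.0% over 41174 probes.
Nox4, probe A_51_P369311, chr7:83259106-83274126, + strand: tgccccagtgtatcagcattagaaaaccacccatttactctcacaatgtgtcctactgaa
Nox4, probe A_52_P617638, chr7:83332330-83332389, + strand, middle: agctgaactcacttacactgaagctgatag
Cybb, probe A_51_P330331, chrX:7875782-7877709, - strand: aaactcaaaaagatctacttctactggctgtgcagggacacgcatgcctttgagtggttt
Cybb, probe A_52_P444628, chrX:7870338-7870397, - strand, middle: gaaaaagaagaacacatttatttactgaca
Cyba, probe A_51_P131800, chr8:121068998-121069266, - strand: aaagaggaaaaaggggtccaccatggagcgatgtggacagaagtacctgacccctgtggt
Ncf4, probe A_51_P377452, chr15:78345425-78345484, + strand, middle: acctcctggcccagagtgcctactggacag
Noxa1, probe A_52_P650259, chr2:25094027-25094250, - strand: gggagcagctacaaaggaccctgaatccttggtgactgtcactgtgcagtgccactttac

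The oxidase genes did not share 1 direction. Nox4 read lower than the pool in all 3 samples, Cyba, Cybb and Ncf4 read higher in all 3, and Ncf1, Noxa1 and Noxo1 had mixed signs. In limma's test of the log2 ratio against 0, with Benjamini-Hochberg adjustment over all features, 0 of the 7 tested members had an adjusted p under 0.05, against 0.902% of all features (0.0361% higher and 0.866% lower). None of the member probes was saturated, and among the 21635 features without a saturated spot limma also called 0, 17.6% of them having an unadjusted p under 0.05. At an unadjusted p under 0.05 were 3 members with a higher signal (42.9% of the 7, against 9.15% of all features) and 1 with a lower one (14.3%, against 9.78%), where 18.9% of all features lay in either direction. Ratios above 0 on all 3 arrays were found for 26.3% of features and ratios below 0 for 19.1%. The median over the 7 members was 0.11, 0.28 and 0.55 in samples 1, 2 and 3, and over all features it was 0.03, 0.01 and 0.04. The RNA is labelled by tissue and not by cell type. A different number of cells of a type and a different amount of RNA per cell thus cannot be told apart here.

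**Figure D1:**
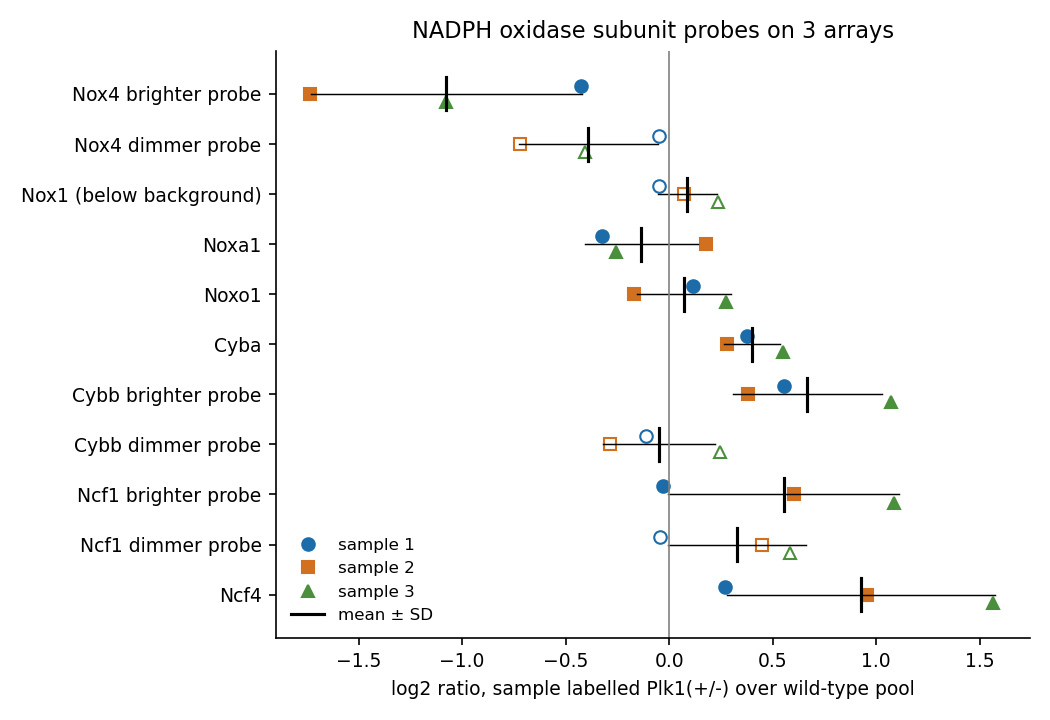
Log2 ratio of the sample labelled Plk1(+/-) over the wild-type pool (horizontal axis) for the 11 probes of the 8 oxidase genes; symbols are the 3 samples, filled for the probe that stands for the gene, open for a second probe and for Nox1, vertical bars are means and horizontal lines span the SD. Both Nox4 probes lie below 0 in each sample and Ncf4 and Cyba above 0, while the dimmer Cybb probe straddles 0.

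Among the catalytic subunits, Nox4 had the most negative mean, -1.08 ± 0.65 (SD, n = 3; 95% interval -1.80 to -0.36), a signal 2.11-fold lower, which missed the threshold (limma adjusted p = 0.193). On its brighter probe the ratio was -0.42 in sample 1, -1.73 in sample 2 and -1.08 in sample 3. The normalised Cy5 intensity was 1015, 451 and 750 in the 3 samples, against 1361, 1500 and 1581 for the same pool read on each array. Its mean lay at rank 262 from the lowest of 22167 features. The dimmer probe, which crosses an intron, gave -0.05, -0.72 and -0.40, a mean of -0.39 ± 0.34. Both probes thus put sample 2 lowest and sample 1 nearest to the pool, and the brighter probe was lower than the dimmer one by 0.38, 1.01 and 0.67 in samples 1, 2 and 3. Averaging both probes gave a mean of -0.73, and without sample 2 the brighter probe's mean was -0.75.

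Cybb encodes the catalytic subunit of the phagocyte oxidase. Its brighter probe read 0.55, 0.38 and 1.07, with a mean of 0.67 ± 0.36 (SD, n = 3; 95% interval 0.25 to 1.09; limma adjusted p = 0.184). The Cy5 intensity was 1137, 1104 and 1815, against a pool at 775, 848 and 863. On this probe sample 3 stood apart, while samples 1 and 2 were close to each other. The second Cybb probe read -0.11, -0.28 and 0.24, with a mean of -0.05 ± 0.27. It was dim, at 132, 112 and 129 in Cy5, and in the pool it was well above background on 1 of 3 arrays. With both probes averaged, the Cybb mean was 0.31.

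Nox1, the catalytic subunit best known from colon epithelium and also described in smooth muscle, was not well above background in either dye on any array. Its normalised intensity was 63.6, 65.3 and 67.7 in Cy5 and 65.8, 62.0 and 57.5 in Cy3, and no fold is given. Of its regulators, Noxo1 cleared background in each sample and in each reading of the pool, and Noxa1 in 2 samples and in 0 readings of the pool.

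Noxo1, the organiser that brings Nox1 its activator, read 0.11, -0.17 and 0.27, with a mean of 0.07 ± 0.23 (SD, n = 3; 95% interval -0.22 to 0.37; limma adjusted p = 0.738). The Cy5 intensities of 645, 650 and 719 overlapped with the pool's 597, 731 and 595. Without sample 3 the mean turned to -0.028. Noxa1, the activator, read -0.33, 0.18 and -0.26 (mean -0.13 ± 0.27; adjusted p = 0.582), with Cy5 intensities of 93.9, 89.8 and 90.8 and the pool at 118, 79.3 and 109. Since the pool was not above background for Noxa1 on any array, these ratios give no fold, and with the scanner's own processed signals the mean turned to 0.35.

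Cyba, the membrane partner shared by the phagocyte oxidase, Nox1 and Nox4, varied least among the members that read higher. It read 0.38, 0.28 and 0.55, with a mean of 0.40 ± 0.14 (SD, n = 3; 95% interval 0.18 to 0.63), 1.32-fold higher, with a limma adjusted p of 0.170. The Cy5 intensity was 1349, 1177 and 1498, with the pool at 1040, 971 and 1024. In sample 2, where Nox4 was lowest, Cyba was still above the pool.

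Ncf4 encodes the cytosolic subunit that binds phosphoinositides at the phagosome. It had the highest mean among the members, 0.93 ± 0.65 (SD, n = 3; 95% interval 0.21 to 1.64), 1.90-fold higher, with a limma adjusted p of 0.214. The ratio was 0.27 in sample 1, 0.95 in sample 2 and 1.56 in sample 3. Cy5 intensities were 1773, 2622 and 4413, with the pool at 1471, 1353 and 1493. The gap between sample 1 and sample 3 was larger than the gap between sample 1 and the pool.

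Ncf1, the organiser of the phagocyte oxidase, had the same order of samples. Its brighter probe, at chr5:133470038-133470097 on the - strand, read -0.03, 0.60 and 1.09, a mean of 0.55 ± 0.56 (SD, n = 3; 95% interval -0.07 to 1.18; limma adjusted p = 0.298). Its other probe, at chr5:133470708-133470767, read -0.05, 0.45 and 0.59, a mean of 0.33 ± 0.33. On both probes sample 1 was near the pool and samples 2 and 3 were above it. The Cy5 intensity of the brighter probe was 155, 259 and 379, against 158, 171 and 178 in the pool. Without sample 3, the means were 0.29 for Ncf1, 0.61 for Ncf4 and 0.47 for Cybb.

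**Figure D2:**
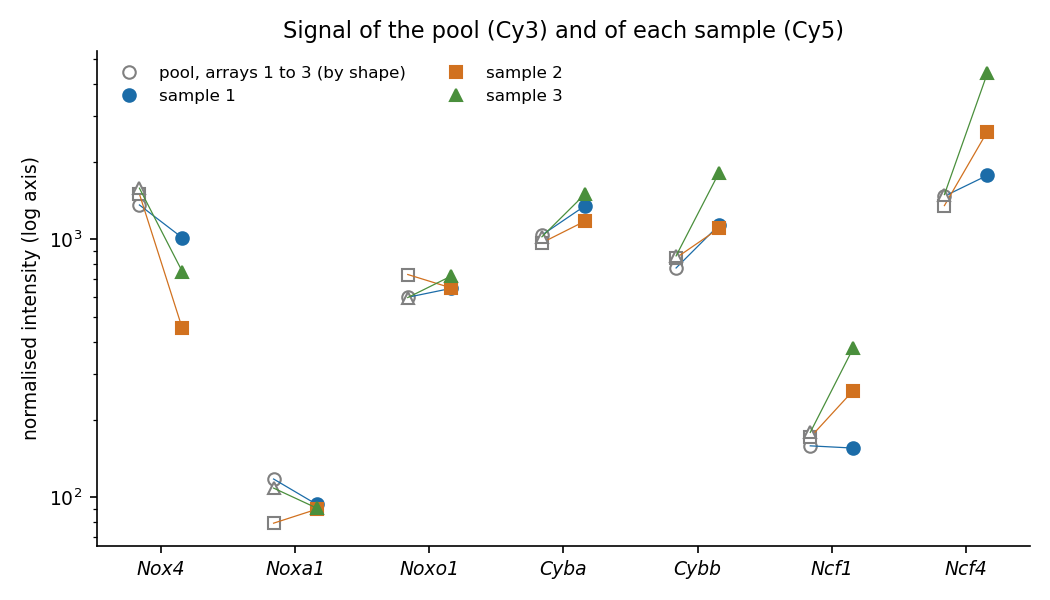
Normalised intensity on a log axis for the 7 tested members: open grey symbols are the wild-type pool in Cy3 on each array, coloured symbols the samples in Cy5, and lines join both dyes of 1 array. Pool values of Ncf4 stay between 1353 and 1493 while the samples run from 1773 to 4413, and for Nox4 the samples lie at 451 to 1015 below a pool at 1361 to 1581.

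The same pool was hybridised on each array, so its Cy3 spread holds technical spread and no difference between pools. Normalization used both dyes, so part of each sample's signal can also enter the Cy3 values. The Cy5 spread holds that dye's technical spread and differences between individual samples. Over the 8 member probes that cleared background in every sample and pool reading, the SD of the log2 intensity ran from 0.09 to 0.66 in Cy5 (median 0.38) and from 0.03 to 0.17 in Cy3 (median 0.08). It was wider in Cy5 for 7 of the 8 probes, and for 76.4% of the 26338 such probes in all, whose medians were 0.18 and 0.09. The dyes differ between samples and pool, and the technical spread of Cy5 was not measured.

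Calls depended on how the arrays were centred. With each array centred on its median in place of loess, the median of all features moved from 0.04 to 0.23 and calls over all features went from 200 (8 higher, 192 lower) to 9763 (7139 higher, 2624 lower), so that the higher share of calls went from 4% to 73.1%. Under that setting Cyba (0.76; limma adjusted p = 0.0226), Cybb (1.02; 0.0232) and Ncf4 (1.33; 0.0282) passed as higher and Noxa1 (-0.59; 0.0263) as lower, although the pool was above background for Noxa1 on 0 arrays, while Nox4 at -0.73 did not (0.0925). Relative to the median of all features, the values were 0.53 for Cyba, 0.79 for Cybb, 1.10 for Ncf4 and -0.96 for Nox4.

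**Figure D3:**
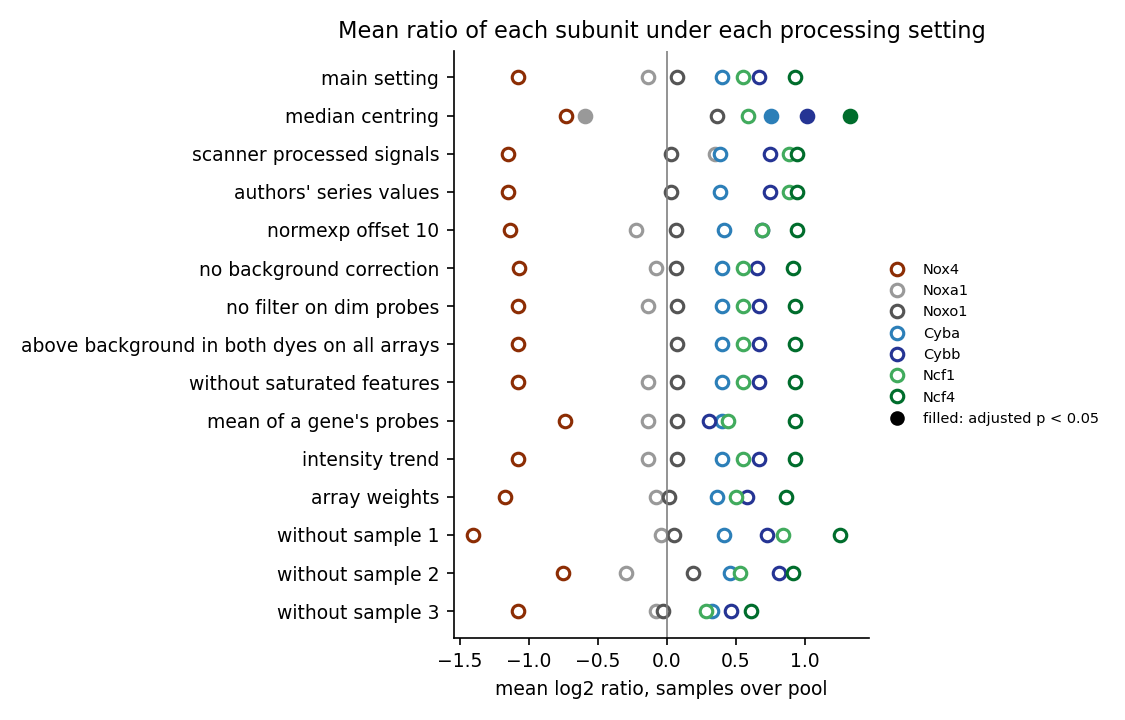
Mean log2 ratio of each tested member (horizontal axis), from its brightest probe unless a row names the mean of probes, under the main setting and 14 processing alternatives (rows), filled where the limma adjusted p was under 0.05. Nox4 stays below 0 and Cyba, Cybb, Ncf1 and Ncf4 above 0 in each row drawn, while Noxa1 and Noxo1 cross 0, and filled points occur under median centring alone; second probes, such as that of Cybb at -0.05, are not drawn.

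The other genes of the oxidase pathway were then set beside the members, among them dual oxidases and their maturation factors, Rac GTPases with their exchange factors, and kinases and lipases that prime the complex. Of 32 genes in this list, 31 were on the arrays and 30 were tested. Over all features, 0 of 30 had a limma adjusted p under 0.05. At an unadjusted p under 0.05, 7 read higher (23.3%, against 9.15% of all features) and 3 lower (10.0%, against 9.78%). The list's median was 0.09, 0.07 and 0.04 in samples 1, 2 and 3. Among the smallest p-values were those of Pla2g4a, a cytosolic phospholipase, at -0.62 ± 0.22, and of the tyrosine kinase gene Lyn, at 0.50 ± 0.29 (SD, n = 3 each; limma adjusted p = 0.135 and 0.201).

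Further genes of that list were picked out after their values were seen. Rac2, the Rac GTPase of blood cells, read 0.30, 1.37 and 1.81, and its exchange factor Vav1 read 0.11, 0.92 and 1.26. Hvcn1, the proton channel that balances the charge moved by the oxidase, read 0.21, 1.22 and 2.12. Relatives in the same list read otherwise: Vav2 had -0.04, -0.54 and -0.40, Vav3 a mean of -0.02 ± 0.12 and Rac3 a mean of -0.0093 ± 0.16. Rac1, the form found in most cells, read 0.18, -0.05 and 0.02, with a mean of 0.05 ± 0.12 that turned to -0.029 in both the scanner's processed signals and the authors' series values and to -0.017 without sample 1. Under the main setting the limma adjusted p-values were 0.204 for Rac2, 0.231 for Vav1, 0.237 for Hvcn1 and 0.753 for Rac1. With median centring Rac1, Rac2 and Hvcn1 passed as higher (limma adjusted p = 0.0227, 0.0311 and 0.0485), and Vav1 did not. The highest Rac1 mean over the alternatives was 0.53.

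Markers of the cells an aorta can hold were read on the same arrays. Smooth muscle markers had medians of -0.42, -1.54 and -0.85 over the 7 without a saturated spot, and 6 of the 7 were below 0 on all arrays (19.1% of all features). At an unadjusted p under 0.05, 6 of the 7 were lower (85.7%, against 9.78% of all features). The summed intensity of the 7 was 27766 to 51692 in the samples and 74409 to 76980 in the pool. On its brighter probe Nox4 differed from this median by -0.0011, -0.19 and -0.22 in samples 1, 2 and 3. That probe thus lay close to the median in sample 1 and below it in the others. The dimmer probe, at -0.05, -0.72 and -0.40, lay above the median in each sample. Over all features 0 of these 7 markers passed, the lowest p being that of the myosin gene Myh11 (-1.31 ± 0.55, limma adjusted p = 0.136). Of the 4 saturated markers 3 passed, but neither a fold, a direction nor a p-value is read from saturated spots. Endothelial markers had medians of 0.03, -0.09 and -0.18 with 1 of 11 lower at an unadjusted p under 0.05 (9.09%, near the 9.78% of all features), and Nox4 minus this median was -0.46, -1.64 and -0.89. The endothelial nitric oxide synthase gene Nos3 read -0.33 ± 0.09 and turned to 0.052 with median centring. Fibroblast markers had medians of -0.25, -0.42 and -0.31, with Col1a1 at -1.13 ± 0.58. Of 9 unsaturated fibroblast genes, 6 were lower at an unadjusted p under 0.05 (66.7%, against 9.78%). The part of these cells in the Nox4 value was not tested.

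Leukocyte markers were read beside the phagocyte subunits. The 10 pan-leukocyte markers had medians of 0.27, 0.47 and 0.88, and 9 of them were above 0 on all arrays (26.3% of all features), with 7 higher at an unadjusted p under 0.05 (9.15% of all features) and 0 past the adjusted threshold. Their summed intensity was 17178 to 37676 in the samples and 13313 to 14271 in the pool, and 9 of the 10 cleared background in every sample and pool reading. Relative to this median, Cybb lay at 0.28, -0.09 and 0.19, Ncf1 at -0.30, 0.13 and 0.20, Ncf4 at -0.0007, 0.48 and 0.68 and Cyba at 0.11, -0.20 and -0.33. For Cybb and Ncf1 these are the brighter probes. The second probe of Cybb read -0.11, -0.28 and 0.24 and that of Ncf1 -0.05, 0.45 and 0.59. Both lay below this median in each sample. In the integrin gene Itgb2, the lowest p of that list, the ratio was 0.40, 0.50 and 0.92.

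B cell markers had medians of 0.13, 1.35 and 2.07, with 6 of 9 higher at an unadjusted p under 0.05 (66.7%, against 9.15% of all features), and T cell markers 0.16, 1.33 and 1.66, with 6 of 10. Blk (0.41 ± 0.16) and Cd247 (1.03 ± 0.52) had the lowest p in those lists, Blk not being above background in both dyes on every array. Macrophage markers had medians of -0.11, 0.0045 and 0.19 over 15 unsaturated genes, with 1 higher (6.67%) and 2 lower (13.3%) at an unadjusted p under 0.05, shares near those of all features (9.15% and 9.78%). These were Aif1 at 0.26, 0.80 and 1.56, Cd14 at -0.34 ± 0.07 and the scavenger receptor gene Cd163 at -0.40 ± 0.22, which turned to 0.014 with median centring. Neutrophil markers had medians of 0.12, -0.02 and -0.03 over 10 genes, with 0 at an unadjusted p under 0.05, and Cxcr2, the lowest p, at 0.34 ± 0.31 and likewise not above background throughout, turned to -0.047 with median centring. Only 6 neutrophil genes were above background in both dyes on every array. The median of the means was -0.060 over these 6 and 0.011 over the 10. The medians of the pan-leukocyte, B cell, T cell and macrophage lists all had sample 1 lowest and sample 3 highest, as Ncf1 and Ncf4 had, whereas Cyba and Cybb had sample 2 lowest. The colon epithelium list had that order too, while the neutrophil median was highest in sample 1 and lowest in sample 3. The part of leukocytes in the result was not tested. The summed intensity was 3453 to 18252 in the samples and 3117 to 3484 in the pool for the B cell list, and 26731 to 61307 and 27604 to 28215 for the macrophage list. The latter range rested on Marco, a scavenger receptor gene singled out after its values were seen, at -1.10, 3.48 and 4.90 (mean 2.43 ± 3.14; limma adjusted p = 0.364). Without Marco the macrophage sum was 26414 to 33616 in the samples and 26907 to 27536 in the pool.

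**Figure D4:**
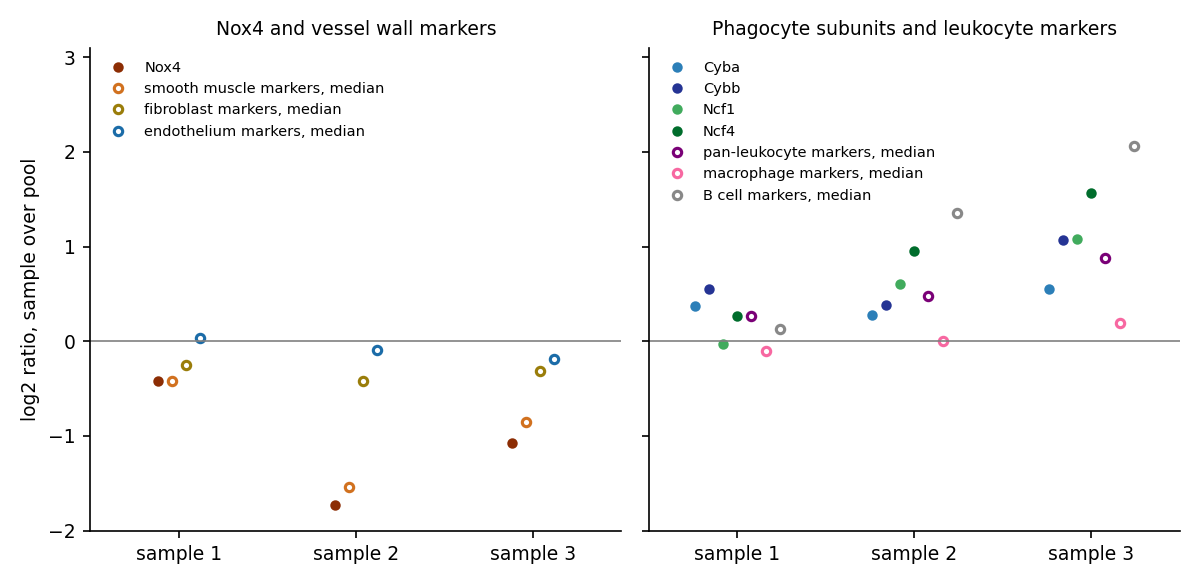
Log2 ratio over the pool (vertical axis) in each sample: Nox4 with the medians of vessel wall marker lists on the left, and the phagocyte subunits with leukocyte list medians on the right; filled points are oxidase genes and open points list medians. Nox4 lies at -0.42, -1.73 and -1.08 beside smooth muscle medians of -0.42, -1.54 and -0.85, and Ncf4 lies between the pan-leukocyte and B cell medians in samples 2 and 3. Each gene is drawn by its brightest probe. Second probes, such as that of Nox4 at -0.05, -0.72 and -0.40, are not drawn.

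Fat and gut were also looked at, since fat surrounds the vessel and Nox1 is known from the colon. Adipocyte markers were saturated for 7 of 9 genes, and 5 of these had an adjusted p under 0.05 with a ratio below 0. Saturated spots numbered 574 to 627 per array in Cy5 and 66 to 104 in Cy3. Neither a fold, a direction nor a p-value is therefore read from saturated spots. Of the saturated adipocyte genes, Cidec and Ucp1 both read -1.45, -1.43 and -1.49 in samples 1 to 3, as did the saturated smooth muscle gene Myl9. Of the 2 unsaturated adipocyte genes Retn, with the lower p, read -1.17, 0.39 and -0.65 (mean -0.48 ± 0.79). Its mean turned to 0.0065 with median centring. Colon epithelium markers had medians of -0.14, 0.08 and 0.23 over 4 tested genes, of 6 listed, and Krt20, not above background in both dyes on every array, at 0.30 ± 0.21 turned to -0.12 with median centring.

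The genes nearest in pattern were sought for both Nox4 and Cybb by the distance between their 3 ratios and those of every other unsaturated gene with a symbol. Over 3 arrays this is a description. Nearest to Nox4 were Ccn3, a matricellular protein gene, at -0.42, -1.77 and -1.09 (distance 0.038), Enah, an actin regulator gene, at -0.47, -1.81 and -0.96 (0.15), and the tropomyosin gene Tpm2 at -0.52, -1.61 and -1.04 (0.16). Among the nearest to Cybb were H2-M3, a non-classical major histocompatibility gene, at 0.53, 0.37 and 1.01 (0.067), and Trim30a at 0.52, 0.39 and 0.96 (0.11). Their limma adjusted p-values lay between 0.173 for Tpm2 and 0.197 for Enah, so 0 of these 5 passed either.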

How the data were processed

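RNA of 3 samples labelled Plk1(+/-) (Cy5) and of a wild-type pool (Cy3) was read on 3 arrays of 1 slide. The members and the gene lists were chosen with earlier results of these data known. Spot intensity values came from the authors' scans, read by Feature Extraction (version 9.5.3.1, per the file headers) on a design annotated in mm7. The deposited log10 ratio is Cy5 over Cy3 after background subtraction and dye normalization, per the file headers. The authors' deposited series values are log2 and matched it with slopes of 0.997, 1.00 and 0.998 for 28817 probes; their column medians were -0.02, -0.0052 and -0.03, and any centring is not stated in the sources used here.

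Mean signals were corrected with normexp (offset 50) and normalized by loess in limma 3.58.1 (R 4.3.3; package data.table, version 1.17.8), control spots at weight 0. Control spots and outlier spots (136, 109 and 100 per array) were left out. A probe stayed in if 2 or more of the 3 arrays had it well above background in Cy5, in Cy3 or in both, and the brightest kept probe stood for each gene. Intensities printed are per dye after loess and Aquantile. Symbols came from RefSeq for GRCm38.p6 (22951 of 41174 probes by accession, 6659 by current symbol, 3109 by synonym, 8455 kept as in the files). The test was lmFit and eBayes on the ratio against 0, two-sided, and was also run on simulated data. These held no dye bias and no error shared through the pool, so that run covers neither. Labels name the samples as biological replicates. Rac1, Rac2, Rac3, Hvcn1, Vav1, Vav2, Vav3, Marco, Cidec, Ucp1 and Myl9 were named after their values were seen. Otherwise named were all members, up to 3 genes with the smallest p of each list (in the text 2 for the pathway list and 1 to 3 for each cell type list), the 3 genes nearest to Nox4 and to Cybb, and Plk1; some genes that this rule names are not reported here. Lists of cell types were smooth muscle, endothelium, fibroblast, adipocyte, pan-leukocyte, macrophage, neutrophil, B cell, T cell and colon epithelium. Alternatives were other background, normalization, filter, saturation, probe and variance choices and leaving out each sample. The macrophage sum without Marco was added after seeing the data.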

Additional observations from a re-analysis of the deposited data

How the results depend on the processing

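By the brightest probe of a gene, or the mean of its probes where that was the alternative, Nox4 across 15 alternatives stayed lower (means of -1.40 to -0.73) and Cyba (0.33 to 0.76), Cybb (0.31 to 1.02), Ncf1 (0.29 to 0.89) and Ncf4 (0.61 to 1.33) stayed higher; with every probe taken by itself, the second probes read -0.05 for Cybb, -0.39 for Nox4 and 0.33 for Ncf1. The count of members past the adjusted threshold was 0 under 14 of them (3 to 5 members at an unadjusted p under 0.05) and 4 with median centring. With median centring 14 pathway genes, 43 cell type markers and 9763 features passed, against 0, 8 and 200. Over all features limma called 116 with the scanner's processed signals, 121 with a normexp offset of 10, and 0 without saturated features, where 3815 features and 36 markers had an unadjusted p under 0.05 and 0 markers passed. Leaving out each sample gave 0 to 0 members, 0 to 0 pathway genes, 0 to 12 markers and 0 to 174 features; it was 0 without sample 2 (1978 features and 29 markers at an unadjusted p under 0.05) and without sample 3 (3104 and 33). Signs turned for Noxa1 (0.35, scanner's processed signals), Noxo1 (-0.028) and Plk1 (-0.068) without sample 3, Rac1 (-0.029 with both the scanner's and the authors' values, -0.017 without sample 1), and, with median centring, Cxcr2 (-0.047), Nos3 (0.052), Retn (0.0065), Cd163 (0.014) and Krt20 (-0.12). Leaving out each sample gave -0.028 to 0.19 for Noxo1, -0.068 to 0.18 for Plk1 and -0.017 to 0.10 for Rac1. The cause was not tested. Noxa1 was not tested with the authors' values or with both dyes above background. No paired analysis was possible because the samples form 1 group against 1 pool. Signal over background limits, among others, Nox1, Noxa1, the second Cybb probe, Blk, Cxcr2 and Krt20.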
